A study of Homo sapiens with 10 samples.

Results

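Readthrough genes are annotated transcription units that begin in 1 gene, run past its usual 3′ end and continue into the next gene on the same strand. They were chosen by name alone. A gene was taken where its symbol can be cut at a hyphen into 2 symbols that are both listed in the same table, and the rule uses no expression value. This gave 120 joined genes of 18144 listed genes, with 237 different partner genes, of which 3 (PRH1, BLOC1S5 and RAB4B) belong to 2 joined genes each. SLX1A-SULT1A3 and SLX1B-SULT1A4 held identical values in every library and are 1 measurement listed under 2 names, although the values of their partners differ. A joined gene together with its first-named and second-named partner is called a trio.

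RNA was sequenced from spheroids, 3-dimensional cultures, of PC-3, an established human prostate cancer cell line. The labels give the genotype as WT. The spheroids were left untreated or were exposed to topotecan, an inhibitor of DNA topoisomerase I that traps the enzyme on DNA, either as CONV-TOPO, the conventional regimen with all of the drug at the start, or as EE-TOPO, the extended-exposure (metronomic) regimen with small daily portions. Untreated spheroids were sequenced on days 0, 3 and 7 and those of each regimen on days 3 and 7. Each of these 7 conditions is a single library. The days are those of the labels, while the study's methods describe exposure of PC-3 spheroids over weeks, so the exposure behind day 7 is not certain. All spheroids came from 1 cell line, and nothing in the labels shows repeated cultures.

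Transcription of a protein-coding gene normally ends when the cleavage and polyadenylation machinery cuts the nascent RNA and the polymerase is released. When that cut is skipped, the polymerase can run into the neighbour, and splicing may then join exons of both genes, often omitting the last exon of the first gene and the first exon of the second. Some of these RNAs can encode fusion proteins, while others are noncoding or are degraded by nonsense-mediated decay, the pathway that removes mRNAs with premature stop codons.

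All 120 joined genes lay on the strand of both partners and overlapped both. The first-named partner was upstream in 119 trios. The exception was FMC1-LUC7L2, where the listed start of LUC7L2 precedes FMC1. Of the joined genes, 102 started within 1 kb of the first partner, and 10 partner pairs overlapped. The median gap between partners was 6766 bases, and 67 pairs were less than 10 kb apart. RefSeq held 119 of the joined genes, as 70 protein-coding genes, 45 long noncoding RNAs and 4 transcribed pseudogenes.

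Little of a joined RNA is its own sequence. For the 96 trios found whole in GENCODE 44, a median of 100% of the joined transcript's bases lay in exons of the partners, and 48 joined transcripts had no base outside them. What is particular to the joined RNA is mainly the splice junction between the 2 genes. Junctions of this kind in coding transcripts were found in GENCODE 44 for 50 joined genes, and none of the 50 junction sequences, each 15 bases from either side, occurred in a transcript of another gene. The junctions of the joined genes that the results turn on, with DUS4L-BCAP29 for contrast, are shown 5′ to 3′ on the GRCh38 build. Lower case is the exon of the first gene, and capitals are the exon of the second gene. The interval runs from the last base before to the first base after the intron.
COMMD3-BMI1, chr10:22319018-22326431, plus strand: atggaacaattacagGATTTTTTATCAAGC
CHURC1-FNTB, chr14:64926080-65004249, plus strand: atggatgaatttcagGCAAAAGTAGAAGAA
FMC1-LUC7L2, chr7:139345621-139376062, plus strand: aatttcatggcaaggGAGATACAACTCGTC
RPL36A-HNRNPH2, chrX:101395457-101411936, plus strand: gataagaagagaaagCTACACCAAAATTGC
TNFSF12-TNFSF13, chr17:7556902-7559624, plus strand: tacctgtactgtcagAGTTCCGATGCCCTG
ATP5MF-PTCD1, chr7:99435268-99460086, minus strand: gagcgtttcaaagagGCCCTGGAGGGACAG
ISY1-RAB43, chr3:129095169-129130088, minus strand: cagaaggctcctgggCTGCAGATCTGGGAC
PEDS1-UBE2V1, chr20:50096820-50127975, minus strand: tctgcatcaccacagGAGTAAAAGTCCCTC
BCL2L2-PABPN1, chr14:23308199-23322181, plus strand: agcagtgggggctggGAGCTGGAAGCTATC
DUS4L-BCAP29, chr7:107576592-107580759, plus strand: ttactgggacagatgGTGTGAAGAAAAAAA

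The deposited values show how the shared exons were handled. Values are counts scaled to a library of 1000000 reads (CPM). In a library where whole reads are counted, low values sit on multiples of 1 read. Among values of up to 20 reads in the 7 libraries pooled, 91.1% of those of genes outside the trios were within 0.05 of a whole read, against 38.7% for partners (86 of 222) and 9.86% for joined genes (34 of 345). That last share is about what the width of the window alone would give. The levels of the joined genes are therefore estimated portions of reads that partners could also have received, and a level here is such a portion and not a count of junction reads. The library kit does not mark strand, so reads of any gene on the opposite strand could not be told apart either.

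The estimated depth was at most 22.5 M reads (M for 1000000) and had a median of 18.9 M over the 7 libraries. PC-3 genes such as KRT8 (624 to 1169 CPM), VIM (731 to 1074 CPM) and CD44 (252 to 390 CPM) were high in all libraries, KLK3 was not listed, and the leukocyte gene PTPRC reached 0.489 CPM at most. TMPRSS2, a prostate epithelial serine protease, stood at 71.4 to 149 CPM, the endothelial gene PECAM1 at 16.8 to 32.7 CPM and COL1A1 at 46.6 to 83.0 CPM. The day 7 libraries of both regimens stood apart in composition: their scaling factors (trimmed mean of M-values, TMM) were 0.883 and 0.901, against 0.981 to 1.091 in the other libraries. Relative to library totals, this scaling raised the log2 ratio of CPM to the same-day untreated library by 0.25 for CONV-TOPO and 0.22 for EE-TOPO on day 7, and by less on the log2(CPM + 1) scale for low genes. In bulk RNA, fewer cells of a type and less RNA per cell cannot be told apart.

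Most joined genes were low. Of the 120, 100 passed the filter of 0.528 CPM in at least 2 libraries, 76 had a mean of at least 1 CPM, and 21 had a mean of at least 10 CPM. The 20 that did not pass reached at most 1.18 CPM in any library. Together the 120 joined genes took 636, 652 and 745 CPM in untreated spheroids on days 0, 3 and 7. The sum was 734 CPM with CONV-TOPO and 699 CPM with EE-TOPO on day 3, and 577 and 586 CPM on day 7. Their median was 1.33 to 2.05 CPM in the untreated and day 3 libraries and 0.690 and 0.759 CPM in the day 7 libraries of CONV-TOPO and EE-TOPO.

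The highest joined gene by read portion was HNRNPUL2-BSCL2, with a mean of 87.5 CPM over the 7 libraries. ANKHD1-EIF4EBP3 (27.7 CPM), RPL36A-HNRNPH2 (26.8 CPM), CHURC1-FNTB (26.4 CPM), BOLA2-SMG1P6 (24.2 CPM) and BUB1B-PAK6 (23.2 CPM) followed, and the order among these 5 is within the spread of their own libraries. Per kilobase of transcript the order differed. In untreated spheroids BUB1B-PAK6 stood at 37.5 CPM per kilobase and RPL36A-HNRNPH2 at 33.6, beside 29.3 for HNRNPUL2-BSCL2 and 3.84 for the long ANKHD1-EIF4EBP3. The first 2 rest on short GENCODE transcripts of 608 and 562 bases, and the partners of BUB1B-PAK6 have 3669 and 4379. The annotation used in counting is not given, so the order per kilobase is uncertain. BOLA2-SMG1P6, BMS1P4-AGAP5, the NME1-NME2 trio and the ribosomal protein trios have near-identical copies elsewhere in the genome, so their values are less certain.

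As a share of the trio, the joined gene was usually a small part. Over the 118 trios with at least 1 CPM in every library, the median share was 3.26%, 4.28% and 3.84% in untreated spheroids on days 0, 3 and 7. It was 4.09% and 4.10% with CONV-TOPO and EE-TOPO on day 3, and 1.72% and 2.11% on day 7. Counted per kilobase of transcript for 95 trios, the median was 3.76% untreated and 1.75% on day 7 with treatment. Among joined genes with a mean of at least 1 CPM, the share spanned a wide range. BMS1P4-AGAP5, in RefSeq a transcribed pseudogene, averaged 69.6% of its trio and IQCJ-SCHIP1 64.0%. The lowest were SENP3-EIF4A1 with 0.426% and NME1-NME2 with 0.439%, where the second partners EIF4A1, a helicase of translation initiation, and NME2, a nucleoside diphosphate kinase, are among the abundant genes of the cell.

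Levels of joined genes varied between any pair of libraries, untreated ones included. A gene was counted as 2-fold different where the ratio of scaled CPM was at least 2 or at most 0.5 and its exact 95% interval left out 1. These intervals take the estimated reads as counts and cover counting error only. Between untreated day 3 and day 0, 27 of the 100 joined genes differed by this rule, against 5.02% of all 14836 genes tested. Between untreated day 7 and day 0 it was 35 of 100, against 5.53%. The share of the trio moved likewise, with a median range of 2.33 percentage points across the 3 untreated libraries and a range over 10 points in 17 of 118 trios. TEN1-CDK3, for example, made up 18.1%, 15.6% and 41.1% of its trio in untreated spheroids on days 0, 3 and 7. TEN1 is a subunit of a telomere-binding complex, and CDK3 is a cyclin-dependent kinase.

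The first question of the design was how each regimen differed from no treatment over both days. In the limma fit of the 6 libraries of days 3 and 7, with treatment and day as terms, no joined gene and no gene at all passed an adjusted p of 0.05 (0% called) for EE-TOPO against untreated, for CONV-TOPO against untreated (0%) or for EE-TOPO against CONV-TOPO (0%). At an unadjusted p under 0.05, 527, 257 and 134 genes were found in these comparisons, and among the joined genes 5, 7 and 2. The fit has 2 residual degrees of freedom and assumes the same effect on both days. When only the 4 libraries of the treatments compared were fitted, 34, 9 and 80 genes passed, with 3, 1 and 2 joined genes among them. That fit leaves 1 residual degree of freedom, fewer than the fit of 6 libraries, so its calls are less certain.

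On day 3, joined genes differed little from the untreated spheroids as a set. On the log2(CPM + 1) scale, the median log2 ratio to same-day untreated spheroids was 0.16 for CONV-TOPO and 0.08 for EE-TOPO, against -0.01 and -0.02 over all genes tested. With CONV-TOPO, 17 joined genes were at least 2-fold higher (2.61% of all genes) and 12 at least 2-fold lower (1.41%). With EE-TOPO, 12 were higher (3.96%) and 9 lower (1.42%). Between untreated libraries the counts in either direction, 27 and 35, were of a similar size. Both regimens lay above all 3 untreated libraries for 12 joined genes (15.6% of all genes did so) and below them for 12 (18.3%).

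On day 7, joined genes of both regimens lay far from the untreated spheroids, in both directions and more often below. The median log2 ratio was -0.57 for CONV-TOPO and -0.40 for EE-TOPO, against -0.05 and -0.04 over all genes, with the middle of the joined genes spread from -1.36 to 0.56 and from -1.27 to 0.47. CONV-TOPO held 22 joined genes at least 2-fold higher (9.54% of all genes) and 49 at least 2-fold lower (13.3%). EE-TOPO held 19 higher (11.0%) and 39 lower (14.0%). Both regimens were 2-fold higher for 17 joined genes (7.08%) and 2-fold lower for 36 (9.35%), and 1 joined gene moved 2-fold in opposite directions. Both regimens are compared here with the same untreated library.

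**Figure D1:**
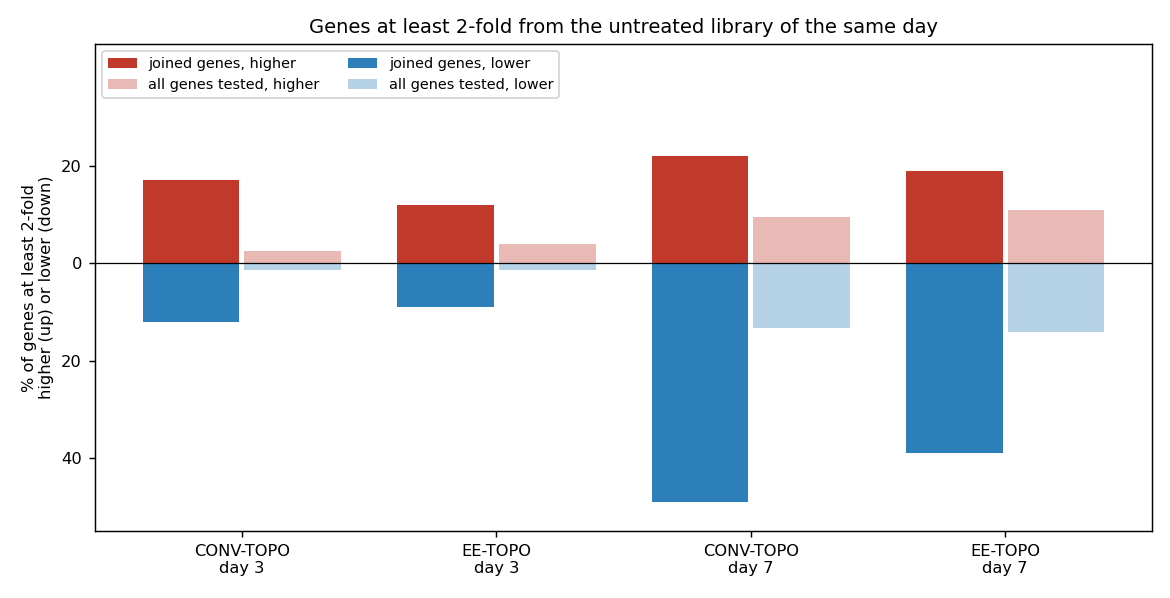
Percent of the 100 joined genes that passed the filter (dark bars) and of all 14836 genes tested (light bars) that were at least 2-fold higher (up) or lower (down) than the untreated library of the same day, for each regimen and day. On day 7, 49.0% and 39.0% of the joined genes were lower with CONV-TOPO and EE-TOPO, beside 13.3% and 14.0% of all genes.

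A test of day 7 was added after these values had been seen. It set the 2 treated libraries of a day, 1 of each regimen, against the 3 untreated libraries in limma, so its p-values measure the spread among those 5 libraries and treat both regimens as 1 group. On day 3, no joined gene passed an adjusted p of 0.05 and 10 had an unadjusted p under 0.05. Over all genes, 5 rose (0.0337%) and none fell (0%) by the adjusted p, with 2153 at an unadjusted p under 0.05. On day 7, 17 of the 100 joined genes rose (19.0% of all genes did) and 33 fell (21.5%). Leaving out 1 library at a time gave 16 to 17 that rose and 22 to 32 that fell, the fewest without CONV-TOPO of day 7 (16 and 22, beside 11.5% and 13.4% of all genes). Without EE-TOPO of day 7, 17 rose and 24 fell, beside 10.1% and 11.1%. With all 5 libraries the number that rose was close to the background and the number that fell above it, and without either treated library both were above it. With library totals in place of TMM scaling, 16 rose and 36 fell, while over all genes the split moved from 2825 higher and 3196 lower to 1861 (12.5%) and 4523 (30.5%). Joined genes also changed by more than all genes did. The median absolute log2 change was 0.86 for joined genes and 0.41 for all genes, and 43 of 100 joined genes changed by more than 1 log2 unit, beside 10.4% of all genes. For joined genes with a mean of at least 5 CPM the share was 15 of 34 (44.1%), beside 10.8% of all such genes. On day 3 the median absolute change was 0.30 for joined genes and 0.18 for all genes. More than 1 log2 unit was then reached by 1 of 100 joined genes and 0.883% of all genes. Joined genes also varied more without treatment: 35 of 100 differed 2-fold between untreated days 7 and 0, beside 5.53% of all genes.

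Both regimens of day 7 lay above all 3 untreated libraries for 20 joined genes (29.2% of all genes) and below all 3 for 43 (34.0%). Set against all 5 other libraries, including the treated ones of day 3, the counts were 19 (25.6% of all genes) and 42 (29.9%). Joined genes could also drop out of detection. In 12 of the 120, both day 7 libraries with treatment held under 3 reads while every untreated library held 3 or more (1.53% of the 18144 listed genes), and in 0 of the 120 it was the other way round (0.320%). The 12 were chosen by this pattern after their values were seen and include SETDB2-PHF11, BIVM-ERCC5, RTEL1-TNFRSF6B and PTGES3L-AARSD1. SETDB2-PHF11 stood at 2.48, 2.42 and 2.19 CPM untreated and at 3.43 and 3.19 CPM on day 3, and was under 1 read in both day 7 libraries. The number of joined genes listed at exactly 0 was 1 to 5 in the other libraries. On day 7 it was 14 with CONV-TOPO and 12 with EE-TOPO. Among the 100 that passed the filter it was 7 and 4 on day 7. Of genes outside the trios that passed, 1.28% and 0.709% were then at 0. In the other libraries at most 1 of the 100 was at 0, beside at most 0.172% of those genes. Because 23 of the 100 joined genes passed the filter with both day 7 libraries under it, part of the count of falls goes with the filter itself. Without any filter, 15 of 120 rose and 23 fell, beside 13.0% and 14.4% of all 18144 genes.

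With a pseudocount of 1 CPM, the largest log2 change upward on day 7 was that of COMMD3-BMI1 (chr10:22316383-22331486, plus strand), whose partners encode a copper metabolism domain protein and a core subunit of Polycomb repressive complex 1. Its level was 1.86, 4.64 and 1.54 CPM in untreated spheroids on days 0, 3 and 7. With CONV-TOPO and EE-TOPO it was 1.64 and 0.702 CPM on day 3, and 47.6 and 41.2 CPM on day 7. The 2 day 7 values stood apart from the other 5, and the log2 change was 3.90 ± 0.32 (SE, limma adjusted p = 0.000149). With a pseudocount of 0.1 CPM it was 4.36, below the 5.26 of C1QTNF3-AMACR.
BMI1 itself went the other way. It held 133, 177 and 139 CPM untreated, 139 and 128 CPM on day 3, and 17.3 and 25.4 CPM on day 7 (log2 change -2.57 ± 0.17, limma adjusted p = 0.000134), while COMMD3 stayed between 28.3 and 51.7 CPM in all 7 libraries. The joined gene thus went from 0.447% to 1.99% of its trio in the first 5 libraries to 49.9% and 42.2% on day 7. Per kilobase of transcript, COMMD3-BMI1 went from 1.89 to 31.3 CPM and BMI1 from 42.2 to 6.02 CPM between untreated and day 7 treated means.

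CHURC1-FNTB joins a zinc finger transcription regulator to the beta subunit of protein farnesyltransferase. It stood at 16.7, 9.99 and 8.75 CPM untreated, at 13.6 and 5.94 CPM on day 3, and at 73.9 and 56.3 CPM on day 7 (log2 change 2.60 ± 0.27, limma adjusted p = 0.000285). Both partners fell: CHURC1 from 127 to 138 CPM untreated to 79.2 and 91.7 CPM, and FNTB from 60.6 to 69.9 CPM to 26.8 and 40.4 CPM, with limma adjusted p-values of 0.0186 and 0.00626. The groups did not overlap for any of the 3 genes.

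FMC1-LUC7L2 pairs an assembly factor of the mitochondrial ATP synthase with a splicing factor that associates with the U1 snRNP. Untreated and day 3 values ran from 7.24 to 11.1 CPM, and the day 7 values were 29.7 and 49.0 CPM (log2 change 2.24 ± 0.26, limma adjusted p = 0.000393). LUC7L2 fell from 82.5 to 110 CPM untreated to 46.4 and 39.7 CPM (limma adjusted p = 0.00217), and FMC1 stayed between 8.22 and 14.9 CPM.

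In some lower trios the joined gene took a much larger share. PHOSPHO2-KLHL23, of a phosphatase and a kelch-like protein, was at 1.03, 1.30 and 1.18 CPM untreated and at 8.09 and 6.54 CPM on day 7 (log2 change 2.10 ± 0.22, limma adjusted p = 0.000291). KLHL23 dropped from 17.1, 18.0 and 17.8 CPM to 1.74 and 0.185 CPM (limma adjusted p = 0.000281). The joined gene thereby went from 4.76% to 5.90% of the trio untreated to 65.2% and 78.0%.
IPO11-LRRC70 rose from 0.199, 1.45 and 0.0455 CPM to 4.67 and 8.83 CPM, while IPO11, a nuclear import receptor, fell from 13.0 to 14.6 CPM to 2.80 and 2.61 CPM (limma adjusted p = 0.000291). LRRC70 lies within the span of IPO11, and here the first partner, not the second, was the one that fell.
C1QTNF3-AMACR ends in AMACR, a racemase of branched-chain fatty acid breakdown that is widely used as a prostate cancer marker. The joined gene stood at 0.0493, 0.239 and 0.361 CPM untreated and at 8.14 and 11.0 CPM on day 7 (log2 change 3.27 ± 0.24, limma adjusted p = 0.000143). On day 3 it was at 0.0649 CPM with CONV-TOPO and at 1.58 CPM with EE-TOPO. AMACR was at 24.6 and 28.4 CPM on day 7 and at 31.6, 53.0 and 38.8 CPM untreated, a difference that did not pass (limma adjusted p = 0.129). AMACR remained the larger member, with the joined gene at 24.3% and 27.5% of the trio on day 7. POC1B-GALNT4, picked after its values were seen, rose from 5.42, 8.52 and 5.74 CPM to 19.0 and 21.8 CPM, while GALNT4, an enzyme of mucin-type glycosylation, fell from 44.2, 61.2 and 59.2 CPM to 1.81 and 0.209 CPM.

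**Figure D2:**
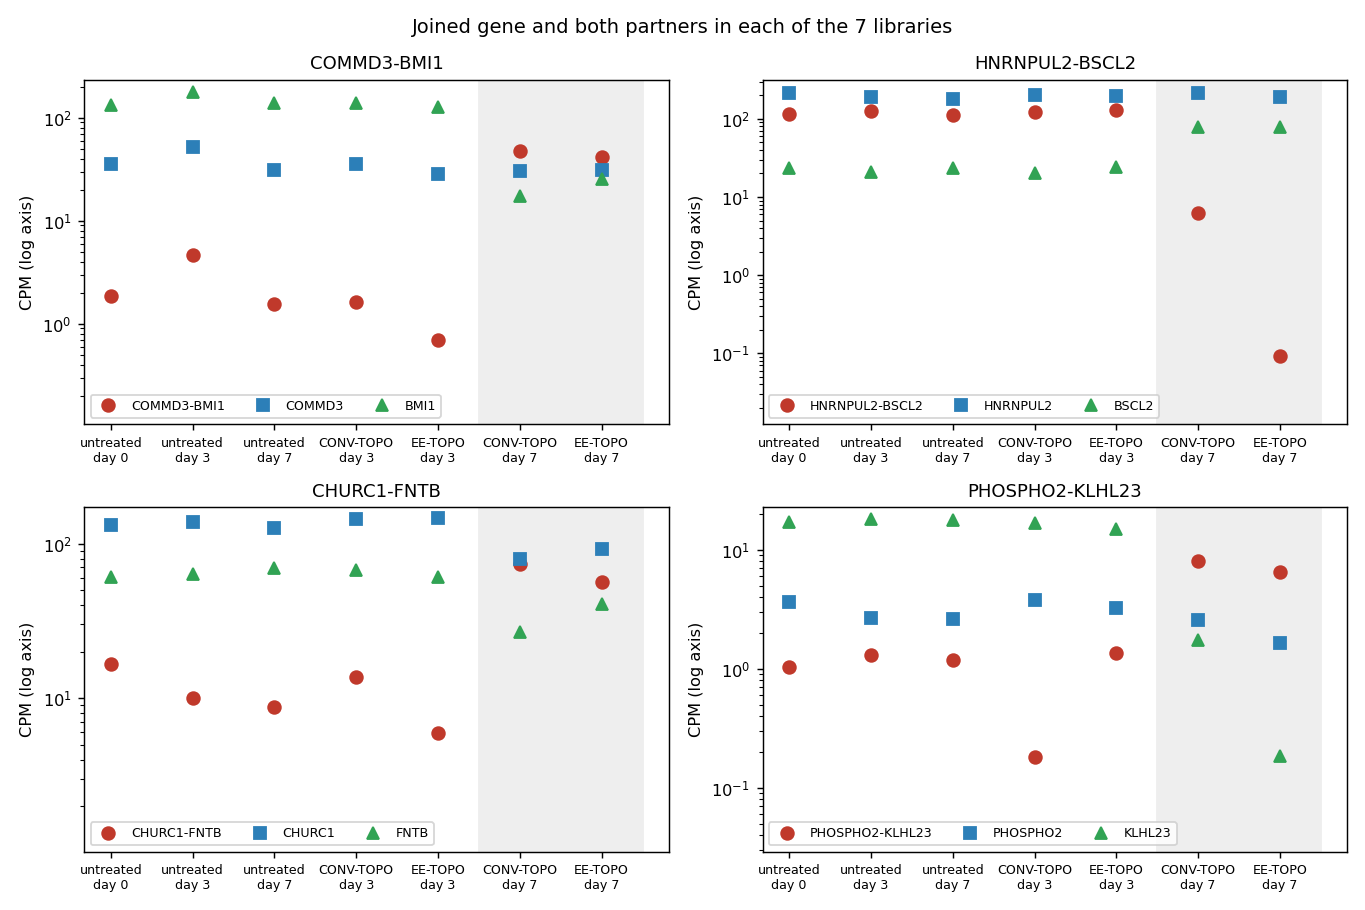
Level in CPM (log axis) of the joined gene (circles), the first partner (squares) and the second partner (triangles) in each of the 7 libraries for 4 trios, with the day 7 treated libraries shaded. COMMD3-BMI1, CHURC1-FNTB and PHOSPHO2-KLHL23 are higher in both shaded libraries than in the other 5, and HNRNPUL2-BSCL2 drops from over 100 CPM to 6.33 and 0.0915 CPM.

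In other trios a partner rose with the joined gene. MICOS10-NBL1, of a mitochondrial cristae protein and a BMP antagonist, went from 1.13, 0.280 and 0.203 CPM untreated to 6.94 and 8.95 CPM on day 7 (log2 change 2.73 ± 0.29, limma adjusted p = 0.000306). On day 3 it was at 3.00 CPM with CONV-TOPO and at 0.408 CPM with EE-TOPO. NBL1 rose from 99.5 to 108 CPM to 194 and 224 CPM (limma adjusted p = 0.000287), and the joined gene remained at most 2.73% of the trio.
INO80B-WBP1, of a chromatin remodeller subunit and a WW-domain binding protein, was at 10.7, 10.2 and 5.62 CPM untreated, at 5.10 and 5.28 CPM on day 3 and at 28.4 and 22.7 CPM on day 7 (log2 change 1.66 ± 0.27, limma adjusted p = 0.00164). Both INO80B (limma adjusted p = 0.0238) and WBP1 (limma adjusted p = 0.000908) rose as well, so the share of the joined gene moved only from 5.58% to 9.47% untreated to 15.4% and 13.2%.
TNFSF12-TNFSF13, the fusion of the TWEAK and APRIL ligand genes, was under 1 read on untreated days 0 and 7 and at 0.696 CPM on untreated day 3. On day 3 it was at 1.39 CPM with CONV-TOPO and at 0.183 CPM with EE-TOPO. It stood at 3.09 and 6.90 CPM on day 7 (log2 change 2.40 ± 0.34, limma adjusted p = 0.000851), with both ligand genes higher too (limma adjusted p = 0.0176 and 0.0225). ATP5MF-PTCD1, of an ATP synthase subunit and a mitochondrial RNA-binding protein, rose from 0.0420 to 0.772 CPM untreated to 4.22 and 5.83 CPM (limma adjusted p = 0.000444). ATP5MF rose (limma adjusted p = 0.0428), while PTCD1 stood between 28.9 and 37.9 CPM in all 7 libraries (limma adjusted p = 0.490).

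RPL36A-HNRNPH2 joins a ribosomal protein gene to an hnRNP gene. It stood at 6.85, 20.3 and 29.4 CPM untreated, at 24.5 and 13.7 CPM on day 3, and at 57.4 and 35.2 CPM on day 7 (log2 change 1.61 ± 0.45, limma adjusted p = 0.0184). HNRNPH2 fell from 89.0 to 123 CPM untreated to 39.9 and 56.2 CPM (limma adjusted p = 0.00331). Without the CONV-TOPO library of day 7, the log2 change of the joined gene was 1.25 and its limma adjusted p was 0.145.

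HNRNPUL2-BSCL2, a long noncoding readthrough (chr11:62690262-62727385, minus strand), had the largest log2 change downward on day 7. Its first partner encodes an RNA-binding protein of the hnRNP U family, and BSCL2 encodes seipin, which acts in lipid droplet formation. The joined gene held 114, 125 and 113 CPM untreated and 123 and 131 CPM on day 3, but 6.33 CPM with CONV-TOPO and 0.0915 CPM with EE-TOPO on day 7. The last value is under what 3 reads are worth in that library. The log2 change was -5.27 ± 0.62 (limma adjusted p = 0.000416).
BSCL2 rose from 23.2, 20.7 and 23.7 CPM to 79.5 and 78.1 CPM (log2 change 1.96 ± 0.14, limma adjusted p = 0.000134), and HNRNPUL2 stayed at 178 to 215 CPM in all 7 libraries. The joined gene's share of the trio was 32.4% to 37.4% in the first 5 libraries and 2.11% and 0.0338% on day 7. Without this gene, the summed CPM of the joined genes was 522 to 631 in the other 5 libraries and 570 and 586 on day 7.

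ISY1-RAB43 joins a spliceosome component to a small GTPase. It was steady at 27.0, 28.9 and 33.0 CPM untreated and at 29.5 and 33.9 CPM on day 3, and fell to 5.15 and 2.30 CPM on day 7 (log2 change -2.60 ± 0.26, limma adjusted p = 0.000281). Neither ISY1 (16.8 to 30.8 CPM) nor RAB43 (80.6 to 118 CPM) passed the test on day 7, with limma adjusted p-values of 0.0943 and 0.272.
TRIM59-IFT80, of a ubiquitin ligase and an intraflagellar transport protein, went from 5.39, 3.35 and 10.6 CPM to under 1 read with CONV-TOPO and 0.393 CPM with EE-TOPO (log2 change -2.49 ± 0.38, limma adjusted p = 0.0011). IFT80 fell with it (limma adjusted p = 0.00213). SENP3-EIF4A1 went from 2.72, 3.35 and 1.99 CPM to under 1 read and 0.493 CPM (limma adjusted p = 0.00253), with SENP3 and EIF4A1 not past the test (limma adjusted p = 0.285 and 0.671).

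Several calls rested on single libraries. BCL2L2-PABPN1 joins an anti-apoptotic BCL2 family gene to the nuclear poly(A) binding protein. It was at 7.65, 15.0 and 15.5 CPM untreated and at 4.53 and 0.0674 CPM on day 7 (limma adjusted p = 0.0124), and without the EE-TOPO library of day 7 or the untreated library of day 7 the limma adjusted p was 0.0653 and 0.0656.
TEN1-CDK3 was at 7.89, 6.30 and 18.4 CPM untreated and at under 1 read and 3.67 CPM on day 7 (limma adjusted p = 0.0165). The limma adjusted p was 0.135 without CONV-TOPO of day 7 and 0.0823 without untreated day 7, and the log2 change went from -2.23 to -1.06 without the former.
PEDS1-UBE2V1, of an enzyme of plasmalogen synthesis and a ubiquitin-conjugating enzyme variant, was at 21.0, 27.2 and 20.9 CPM untreated, 30.8 and 30.3 CPM on day 3, and 12.3 and 7.96 CPM on day 7 (log2 change -0.94 ± 0.22, limma adjusted p = 0.00765). Its limma adjusted p was 0.0821 without EE-TOPO of day 7. ANKHD1-EIF4EBP3 was at 21.5, 27.3 and 46.3 CPM untreated and 10.6 and 15.3 CPM on day 7 (limma adjusted p = 0.0176), and the limma adjusted p was 0.139 without CONV-TOPO of day 7.
EIF4EBP3, an inhibitor of the cap-binding factor eIF4E, went the other way, from 0.0840 to 0.607 CPM untreated to 4.41 and 3.96 CPM (limma adjusted p = 0.000522).

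IQCJ-SCHIP1 and MSH5-SAPCD1 had wide shifts of share on small or scattered levels. IQCJ-SCHIP1 was at 15.1, 12.9 and 17.0 CPM untreated and at no more than 10.1 CPM on day 7 (limma adjusted p = 0.0383), with SCHIP1 up to 10.2 and 5.61 CPM, and its share was 25.4% with CONV-TOPO and 60.2% with EE-TOPO. MSH5-SAPCD1, of a meiotic mismatch repair homologue and its neighbour, was at 0.543, 1.14 and 3.57 CPM untreated and under 3 reads in both day 7 libraries (limma adjusted p = 0.0415). Leaving out CONV-TOPO of day 7 took the limma adjusted p of IQCJ-SCHIP1 to 0.322 and its log2 change from -0.79 to -0.35. Leaving out untreated day 0 or day 7 took it to 0.0853 and 0.130. For MSH5-SAPCD1 the limma adjusted p was 0.176, 0.105 and 0.0739 without CONV-TOPO of day 7, EE-TOPO of day 7 and untreated day 7, and the log2 change went from -1.14 to -0.71 without the last. With no filter on low values, so that more genes were tested, the limma adjusted p was 0.0860 for ANKHD1-EIF4EBP3, 0.0870 for BCL2L2-PABPN1, 0.102 for TEN1-CDK3, 0.108 for RPL36A-HNRNPH2, 0.118 for IQCJ-SCHIP1 and 0.130 for MSH5-SAPCD1.

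**Figure D3:**
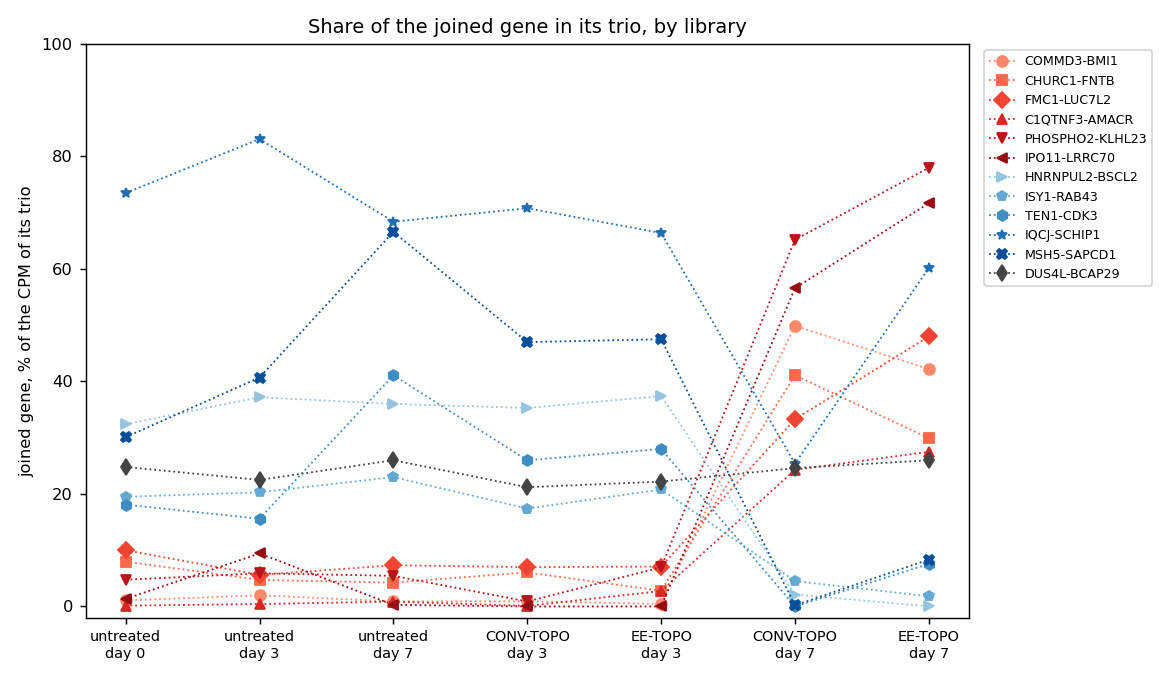
Share of the joined gene in the summed CPM of its trio, in percent, in each of the 7 libraries for 12 named trios. Red marks trios whose share rose on day 7, blue those whose share fell and grey DUS4L-BCAP29, and the dotted lines only link points of the same trio. PHOSPHO2-KLHL23 ends at 65.2% and 78.0%, HNRNPUL2-BSCL2 at 2.11% and 0.0338%.

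Other abundant joined genes did not pass the test on day 7. BUB1B-PAK6, of a spindle checkpoint kinase and a p21-activated kinase, was at 24.6, 21.1 and 22.7 CPM untreated, 19.9 and 23.6 CPM on day 3 and 22.0 and 28.8 CPM on day 7 (log2 change 0.33 ± 0.17, limma adjusted p = 0.145). BUB1B fell from 34.6 to 48.0 CPM to 23.7 and 18.6 CPM (limma adjusted p = 0.0143), which took the joined share from 30.9% to 37.8% untreated to 44.5% and 55.2%.
BOLA2-SMG1P6 (log2 change -0.01 ± 0.19), RPL17-C18orf32 (0.39 ± 0.19), PPAN-P2RY11 (-0.14 ± 0.22) and DUS4L-BCAP29 (-0.40 ± 0.15) did not pass either, with limma adjusted p-values of 0.969, 0.134, 0.622 and 0.0646. For DUS4L-BCAP29, which joins a tRNA dihydrouridine synthase gene to an endoplasmic reticulum chaperone gene, the share of the trio was 21.2% to 26.0% in all 7 libraries. With library totals in place of TMM its log2 change was -0.59 (limma adjusted p = 0.0169).
NME1-NME2 and BLOC1S5-TXNDC5 had limma adjusted p-values of 0.285 and 0.0839. BMS1P4-AGAP5 was at 7.64, 10.1 and 19.6 CPM untreated and at 5.24 and 4.97 CPM on day 7 (limma adjusted p = 0.0506), and passed without untreated day 0 (0.0205) or day 3 (0.0429) in limma adjusted p.

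Where a joined gene fell, its second partner more often rose than fell. Among the 33 trios whose joined gene fell on day 7, 32 second partners were tested, of which 16 rose and 1 fell, with a median log2 change of 0.41. Of the first partners in these trios, 4 rose and 7 fell of 32 tested, with a median of -0.15. Among the 17 trios whose joined gene rose, 5 second partners rose and 7 fell, with a median of -0.18, and of 15 first partners 5 rose and 4 fell. Where the joined gene was not called, 11 second partners rose and 12 fell of 44. Over all 217 partners tested, 60 rose and 46 fell, beside 19.0% and 21.5% of all genes. With library totals in place of TMM, 36 partners rose and 57 fell, beside 12.5% and 30.5% of all genes.
The sum of the trio moved less than its members. Its median log2 change was -0.01 where the joined gene fell and 0.02 where it rose, and it changed by more than 1 log2 unit in 1 of the 33 and in 3 of the 17. These counts describe genes that share reads and are not independent of each other.

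**Figure D4:**
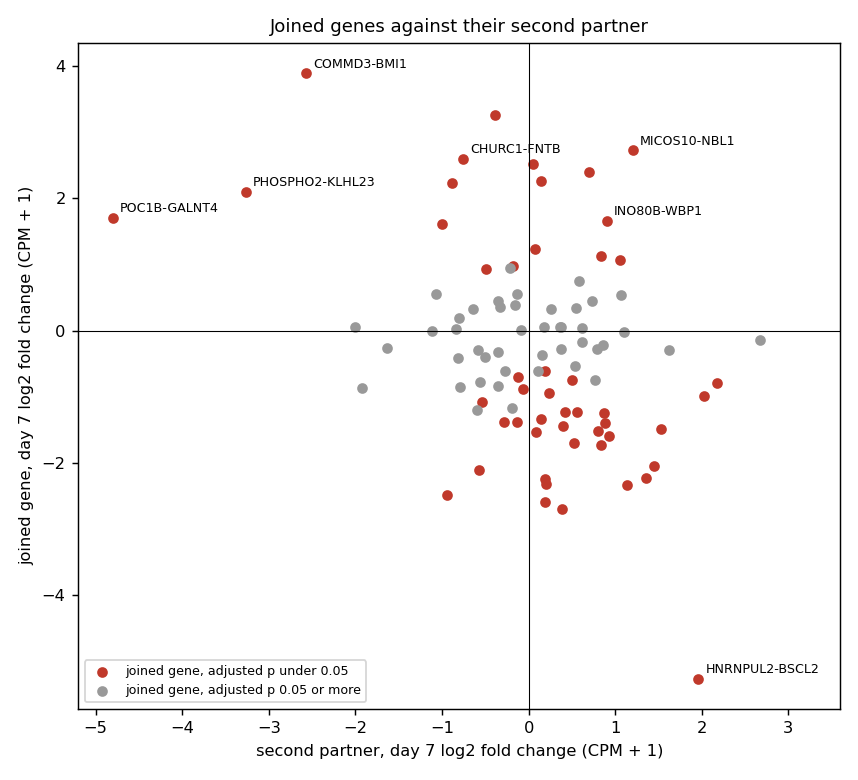
Day 7 log2 fold change, on the log2(CPM + 1) scale, of the second partner (horizontal) against that of the joined gene (vertical) for the 93 trios in which both were tested. Red points are joined genes with a limma adjusted p under 0.05. COMMD3-BMI1, PHOSPHO2-KLHL23 and POC1B-GALNT4 lie at the upper left and HNRNPUL2-BSCL2 at the lower right.

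The share of the trio, which does not depend on the scaling between libraries, also moved down more often than up. On day 7 it lay above the untreated range in both regimens for 23 of 118 trios and below it for 50. On day 3 the counts were 17 and 10. The median absolute change against the untreated mean was 2.61 percentage points on day 7 and 1.21 on day 3, and it exceeded 10 points in 28 trios on day 7 and in 4 on day 3. Since a share falls when a partner rises, this is not a separate line of evidence from the partner counts.

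The day 7 change of a joined gene went with the length of its annotated transcript. It also went with the untreated share of the trio, which is not independent of that change. Among 64 joined genes with a mean of at least 1 CPM and GENCODE lengths, Spearman's rho between transcript length and log2 change was -0.36, and with the length of the first partner it was -0.41. For the share of the trio in untreated spheroids rho was -0.39, for the length of the second partner 0.06 and for mean CPM 0.03. The untreated level of a joined gene enters both its untreated share and its log2 change, which by itself can make the rho of -0.39 negative. On day 3 the value for joined length was 0.16. These are correlations across genes of the same libraries, given as a description without a test. Each length is that of a single GENCODE transcript, which need not be the model that reads were assigned to. Of 22 joined transcripts under 2 kb, 7 rose and 3 fell, with a median log2 change of 0.29. Of 42 joined transcripts of 2 kb or more, 5 rose and 22 fell, with a median of -0.90. Over all genes tested, whatever their length, 19.0% rose and 21.5% fell. Length was not set against the change over all genes, so whether the pattern is particular to joined genes was not tested. Where the joined transcript was longer than that of the second partner, 3 of 37 rose and 20 fell, and where it was shorter, 8 of 26 rose and 5 fell.

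**Figure D5:**
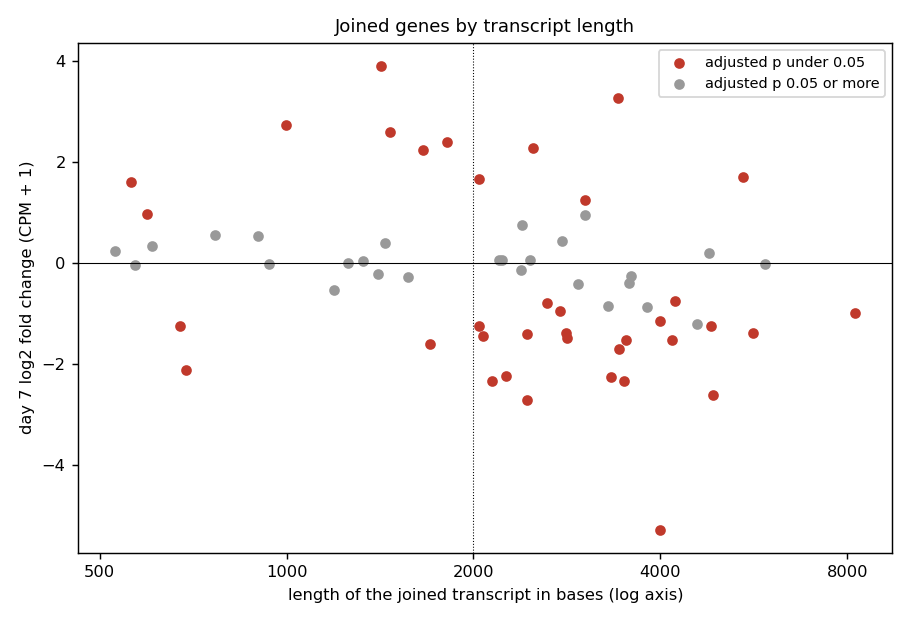
Length of the GENCODE 44 transcript of the joined gene in bases (log axis) against its day 7 log2 fold change for 64 joined genes with a mean of at least 1 CPM, with a dotted line at 2000 bases. Red points have a limma adjusted p under 0.05. Of the 42 joined transcripts of at least 2 kb, 22 fell and 5 rose, beside 21.5% and 19.0% of all genes tested, whatever their length.

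Falls outnumbered rises in both coding and noncoding joined genes, as they did over all genes tested (21.5% fell and 19.0% rose). Of 56 RefSeq protein-coding joined genes tested, 12 rose and 17 fell on day 7 with a median log2 change of -0.25, and of 40 long noncoding ones 5 rose and 15 fell with a median of -0.36. The difference between these classes was not tested.

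Factors that end transcripts or remove readthrough RNAs were counted from lists of known members, to be read against the 19.0% of all genes that rose and the 21.5% that fell on day 7. Of 32 genes of cleavage, polyadenylation and transcription termination, 6 rose and 10 fell, with a median log2 change of -0.10, beside -0.05 for all genes. The 10 that fell included XRN2, the exonuclease that helps release the polymerase, from 97.0, 101 and 93.8 CPM to 49.7 and 45.6 CPM (limma adjusted p = 0.000998), and PCF11, a termination factor, from 31.8, 32.9 and 45.6 CPM to 20.2 and 15.8 CPM (limma adjusted p = 0.00853). SSU72, a phosphatase of the polymerase tail, was among the 6 that rose, from 286, 244 and 269 CPM to 401 and 380 CPM (limma adjusted p = 0.00243).
Of 16 genes of nonsense-mediated decay, 2 rose and 3 fell, with a median of -0.12. Those that rose were MAGOH and EIF4A3 (limma adjusted p = 0.00313 and 0.0220), and those that fell were SMG1, UPF2 and UPF3B. SMG1, the kinase that activates UPF1, fell from 95.9, 117 and 140 CPM to 36.9 and 29.9 CPM (limma adjusted p = 0.000281), while UPF1 stood at 143 to 170 CPM untreated and 155 and 210 CPM on day 7 (limma adjusted p = 0.0725). SMG1 has pseudogene copies, SMG1P6 among the partners here, so its reads may be divided among them. None of the genes of either list passed this limma test on day 3. These list counts are under TMM scaling only.

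Differences between the regimens were about as frequent as those between untreated libraries. Between EE-TOPO and CONV-TOPO, 24 joined genes differed at least 2-fold on day 3 (3.17% of all genes) and 32 on day 7 (5.51%), where 17 were higher and 15 lower with EE-TOPO. The same rule gave 27 and 35 joined genes between untreated libraries of different days. The log2 ratio of EE-TOPO to CONV-TOPO had a median of -0.07 (day 3) and 0.08 (day 7). With 1 library for each regimen and day, these differences have no replicate check.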

How the data were processed

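RNA-seq of PC-3 spheroids was analysed for 7 libraries. Of the 10 samples in the labels, those taken on day 1 (3 samples) were not analysed here. The authors aligned paired reads to hg38 with STAR and deposited values in CPM, counts scaled to 1000000 reads a library, with Partek Flow among the tools. The counter, its annotation and the versions are not given in the sources used here. An offset of 0.0001 CPM was removed, and 0 columns of per-sample values were left unused. Depth was estimated from the step that 1 read is worth, with 3 reads taken as the floor.

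Values were scaled by TMM, computed in Python 3.11.15 with scipy 1.17.1, pandas 2.3.3 and numpy 2.4.6 (figures with matplotlib 3.10.9), and filtered at 10 reads at the median depth (0.528 CPM) in at least 2 libraries, which 14836 genes passed. log2(CPM + 1) was fitted with limma 3.58.1 in R 4.3.3 with Benjamini-Hochberg adjustment over all genes tested. A fold change on this scale understates the change of low genes. Since values of joined genes are not whole reads, no count model was used. On simulated data for EE-TOPO against untreated (14836 genes, of which 200 changed 4-fold), 100%, 100% and 90.5% were recovered at a noise SD of 0.1, 0.2 and 0.4 log2 units, with 1, 12 and 8 false calls. The simulation used the fit of 6 libraries, with the same change on both days and changed genes of a mean above 5 CPM. Changes on day 7 alone, changes of lower genes and the day-wise test were not simulated, so their recovery is not known.

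Named joined genes are COMMD3-BMI1 and INO80B-WBP1, the 12 with the highest mean CPM and, at a mean of at least 1 CPM, the 5 highest and 5 lowest by mean log2 ratio, the 5 largest and 5 smallest shares of the trio and the 4 widest ranges of that share, with their partners. This gave 29 joined genes. Members, lists and named genes were chosen with earlier results of these data known. The gene order in names and the coordinates come from the table, gene classes from RefSeq, and lengths and junctions from GENCODE 44 on GRCh38. Other scalings, pseudocounts, filters, baselines and left-out libraries were tried as alternatives. With 1 library for each treatment and day, p-values measure the spread between libraries, and intervals and floors cover counting error only.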

Additional observations from a re-analysis of the deposited data

Results flagged for a closer look

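In 4 named joined genes both regimens lay on one side of the untreated range on day 3 and on the other side on day 7. The difference between the days was not tested, and both days are compared with the same 3 untreated libraries. BCL2L2-PABPN1 was 1.29 times its untreated mean on day 3 and 0.212 times on day 7. INO80B-WBP1 was at 0.551 times on day 3 and at 3.30 times on day 7. PEDS1-UBE2V1 was at 1.26 times on day 3 and at 0.507 times on day 7. IPO11-LRRC70 was under 1 read in both treated libraries of day 3 and at 13.8 times its untreated mean on day 7, where the untreated values ran from 0.0455 to 1.45 CPM. Of the 100 joined genes tested, 10 moved in opposite ways on the 2 days, beside 11.1% of all genes tested.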

How the results depend on the processing

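Of the summary values recomputed, 144 stayed on their side of the threshold or within the replicate spread or 1.5 times the count, 15 moved and 3 counts went from 0 to above 0, and 20 of the 29 named joined genes kept direction and call in every alternative run. With only the 4 libraries of the treatments compared, 34 genes were called for EE-TOPO against untreated, 9 for CONV-TOPO against untreated and 80 for EE-TOPO against CONV-TOPO, where the fit of 6 libraries called 0. The fit of 4 libraries leaves 1 residual degree of freedom. With a mean of at least 5 CPM required, which leaves 34 joined genes, 4 lay above and 7 below the untreated range on day 3, and 9 above and 14 below on day 7. By the same filter, at least 2-fold changes numbered 2 for EE-TOPO and 6 for CONV-TOPO on day 3, 18 and 23 on day 7, and 2 and 10 between the regimens on days 3 and 7. The matching shares of all genes under this filter are not given, so these counts cannot be set against a background. In the day-wise test of day 7, 20.6% of these joined genes rose and 35.3% fell. Of all genes with such a mean, 22.2% rose and 24.9% fell. The median log2 ratio was -0.02 for EE-TOPO on day 3 with the mean of the 3 untreated libraries as baseline, and -1.10 for CONV-TOPO on day 7 with a pseudocount of 0.1 CPM. Within 0.1 of a whole read lay 15.7% of joined and 92.2% of other low values. For the day-wise test, whose alternatives were chosen after seeing the data, leaving out 1 library gave 0 joined genes higher and 0 to 1 lower on day 3 (1 without untreated day 3), and 16 to 17 higher and 22 to 32 lower on day 7. No paired analysis was possible because replicate numbers only name samples and each treatment and day has 1 library, so day, a term of the fit of 6 libraries, was the one shared factor available. Levels under 3 reads, and changes between regimens, are limited by depth and by the single library of each.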
